A study of Mus musculus with 45 samples.

Results

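Imprinted genes are expressed mainly from the copy inherited from 1 parent. The 50 genes described here were listed by symbol from what is known of mouse imprinting, not from their values, although with earlier results of these data known. All 50 were found among the 26214 genes of the deposited expression table. At most imprinted domains, DNA methylation laid down in the growing oocyte or in male germ cells marks a control region, and this mark is kept on 1 parental copy after fertilization. A promoter, an antisense RNA or an insulator in the control region then sets which copy of the neighbouring genes is transcribed. In a smaller set of genes, H3K27me3 inherited from the oocyte silences the maternal copy without DNA methylation. Of the 50 genes, 21 are paternally expressed genes of domains methylated in the oocyte, 17 are maternally expressed or host genes of such domains, 7 belong to domains methylated in sperm and 5 carry a maternal H3K27me3 imprint. Some of these genes are imprinted in a few tissues only, and Gnas was counted with the paternally expressed genes for the paternal transcripts of its domain, although its main transcript comes from both copies or mainly the maternal copy.

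The study asked what becomes of mouse oocytes that lose H3K36me2 when histone H3.3 with lysine 36 changed to methionine (K36M) is made. Control females were H3f3b K36M-flox/+ and K36M females were H3f3b K36M-flox/+; Gdf9-Cre, all of a C57BL/6 and 129 hybrid background, so both groups carried the floxed allele and only the second carried the Cre, driven by the oocyte-specific Gdf9 promoter. RNA was sequenced from 3 control and 3 K36M libraries of fully grown oocytes (FGOs), each a pool of 5 FGOs from females of 3 to 4 weeks. It was also sequenced from single late two-cell embryos at 31 to 32 h after in vitro fertilization with JF-1 sperm, of which 7 from control and 8 from K36M oocytes were used here. Control embryo replicate 4, set aside in the study because of a technical fault, was added only as an alternative. The embryos of K36M mothers were a mix of H3f3b +/+ and K36M/+, and their genotypes were not given per embryo in the sources used here. Expression was deposited as TPM, a transcript abundance that is scaled to gene length and sums to 1000000 in each library. TPM is a share of the RNA of a library, so fewer transcripts of a gene and more transcripts of other genes cannot be told apart, and nothing in the table separates the parental copies or the K36M transcript from the normal H3f3b transcript. Nothing in the labels says that the libraries came from separate females, so p-values measure only the spread between these libraries.

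TPM keeps no depth, and the reads behind a value are unknown. The study lists total reads per library, which were higher in every FGO library than in every embryo library. The part of this difference in the values of 0 was not tested. Among genes with a mean of at least 10 TPM, 0.0914% were listed at 0 in at least 1 control FGO library and 0.0915% in at least 1 K36M FGO library, against 18.9% for the control and 27.5% for the K36M oocyte-derived embryos. A value of 0 in an embryo is therefore given only as listed at 0. The 8 oocyte markers summed to 14356 to 14396 TPM in control and 12147 to 13675 TPM in K36M FGO libraries. Between these, 0 passed in limma and 5 (62.5%) had an unadjusted p under 0.05, beside 10.5% of all genes. Of the 5, 4 were lower and 1 higher in K36M FGOs. The groups did not overlap for 6 of the 8, beside 15.6% of all genes. In the embryos the 8 oocyte markers summed to 456 to 1741 TPM. The 8 two-cell markers summed to 34.5 to 73.9 TPM in FGOs and to 270.4 to 2440.0 TPM in embryos. The 11 granulosa cell markers summed to 123 to 136 TPM in control and 133 to 205 TPM in K36M FGO libraries, with Ptx3 at 0 in all control and Tnfaip6 at 0 in all K36M libraries. Nr5a2 alone reached 77.1 TPM in control and 141 TPM in K36M FGO libraries, and the other 10 summed to 52.8 to 66.9 TPM and 51.3 to 65.1 TPM. In embryos the 11 summed to 161 to 254 TPM in control and 70.9 to 419 TPM in K36M oocyte-derived embryos. Without Nr5a2, the other 10 summed there to 1.38 to 136.9 TPM in control and 0 to 143.1 TPM in K36M oocyte-derived embryos. The 6 stroma markers stayed at or below 8.17 TPM and the 6 blood markers at or below 0.38 TPM in every FGO library, and in embryos they reached 19.7 and 15.4 TPM in control and 57.4 and 305.6 TPM in K36M oocyte-derived embryos, both of the latter in replicate 3. The part of these markers in the results was not tested.

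Promoters of 5 paternally expressed members with an oocyte-methylated control region at their start are shown, since this methylation is the mark the oocyte places. The sequences are from RefSeq on GRCm38.p6, the assembly of mm10, and are written 5′ to 3′ on the strand of the gene. Each is the part, free of annotated exons, of the 250 bases before the start. Capitals mark TGCCGC or its reverse complement GCGGCA, the hexamer that ZFP57 binds when it is methylated. Snrpn (chr7:60005200-60005449, minus strand) encodes a splicing protein, Peg3 (chr7:6730463-6730558, minus strand) a zinc finger protein, Mest (chr6:30737803-30737994, plus strand) a hydrolase family protein, Plagl1 (chr10:13090582-13090831, plus strand) a zinc finger transcription factor and Zrsr1 (chr11:22971755-22972004, plus strand) a splicing factor of the U2AF family. The Peg3 stretch is the whole 96 bases between the start of Peg3 and that of Usp29 on the other strand.
Snrpn: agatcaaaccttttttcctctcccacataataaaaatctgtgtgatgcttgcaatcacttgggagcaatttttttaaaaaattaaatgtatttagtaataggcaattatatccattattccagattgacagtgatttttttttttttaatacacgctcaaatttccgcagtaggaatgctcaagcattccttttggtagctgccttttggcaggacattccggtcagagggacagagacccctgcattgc
Peg3: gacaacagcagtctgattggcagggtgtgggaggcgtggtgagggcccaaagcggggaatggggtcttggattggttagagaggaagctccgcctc
Mest: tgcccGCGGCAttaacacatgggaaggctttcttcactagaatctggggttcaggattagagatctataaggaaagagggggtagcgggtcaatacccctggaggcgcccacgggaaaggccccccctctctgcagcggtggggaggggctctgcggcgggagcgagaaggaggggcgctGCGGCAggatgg
Plagl1: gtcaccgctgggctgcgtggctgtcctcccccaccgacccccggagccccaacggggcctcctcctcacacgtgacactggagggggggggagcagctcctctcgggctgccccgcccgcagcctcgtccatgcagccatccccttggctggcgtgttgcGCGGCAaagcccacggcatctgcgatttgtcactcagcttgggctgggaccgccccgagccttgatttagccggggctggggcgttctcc
Zrsr1: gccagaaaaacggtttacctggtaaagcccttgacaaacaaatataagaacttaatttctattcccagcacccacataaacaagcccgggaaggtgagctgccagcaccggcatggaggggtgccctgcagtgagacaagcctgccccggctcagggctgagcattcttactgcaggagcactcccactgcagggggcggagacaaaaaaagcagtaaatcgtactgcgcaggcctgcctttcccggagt
The Mest stretch held 2 matches and 11 CpGs over 192 bases, and the Plagl1 stretch held 1 match and 19 CpGs. No match lay in the Snrpn, Peg3 and Zrsr1 stretches, which held 3, 3 and 8 CpGs. The promoter table held 61 start sites of 39 of the 50 members. In the 250 bases before the start, a match on either strand lay in 8 of these 61 windows (13.1%) and in 8.68% of all 32851 windows, and the median CpG number was 11 for the members and 6 for all windows. The members with a match were Copg2, Mcts2, Meg3, Mest, Nap1l5, Plagl1 and Zim1. Peg10 had no window in the table.

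In control FGOs, 34 of the 50 members (68.0%) reached a mean of 1 TPM, beside 52.9% of all genes, and 17 (34.0%) reached 10 TPM, beside 33.4%. In the control two-cell embryos, 40 members (80.0%) reached a mean of 1 TPM, beside 63.4% of all genes, and 26 (52.0%) reached 10 TPM, beside 38.1%. Of the maternally expressed and host genes of the oocyte-methylated domains, 11 of 17 were at 10 TPM or more in control FGOs, against 6 of 21 of the paternally expressed genes, 0 of 7 of the sperm-methylated group and 0 of 5 of the H3K27me3 group. In control embryos the same counts were 11 of 17, 11 of 21, 2 of 7 and 2 of 5. The single embryos varied far more than the oocyte pools. The 50 members summed to 1180 to 1217 TPM in control and 1140 to 1332 TPM in K36M FGO libraries, but to 1413 to 2698 TPM in control and 995 to 1706 TPM in K36M oocyte-derived embryos. Between 40 and 46 members were above 0 in each FGO library, 28 to 44 in each control embryo and 29 to 37 in each K36M oocyte-derived embryo.

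**Figure D1:**
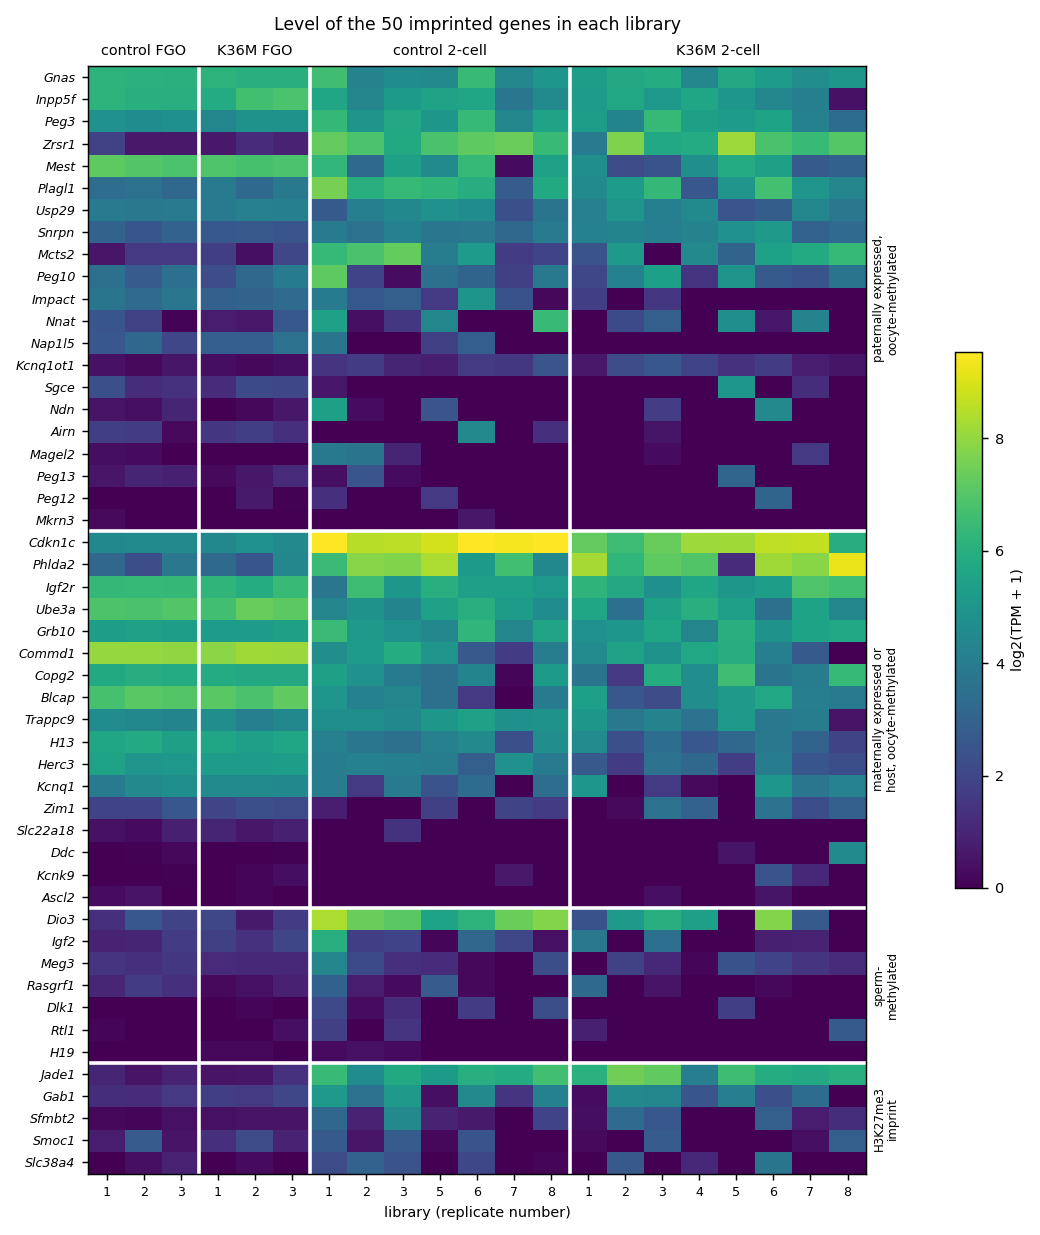
Level of each of the 50 members as log2(TPM + 1), by colour, in the 3 control FGO, 3 K36M FGO, 7 control two-cell and 8 K36M oocyte-derived two-cell libraries (columns, by replicate number), with the members (rows) in 4 imprinting classes and ordered by mean level in each class. The FGO columns look alike within and between genotypes, whereas members such as Zrsr1, Cdkn1c, Dio3 and Jade1 are brighter in the embryos and Commd1, Blcap and Mest are darker.

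K36M FGOs were compared with control FGOs to see whether the imprinted genes responded in the cell that makes the mutant histone. They showed no change past the threshold. Of 34 members tested, 0 passed an adjusted p of 0.05 in limma on log2(TPM + 1), where 1 of 13775 genes did (0.00726%). At an unadjusted p under 0.05 the count was also 0 of 34 members, against 10.5% of all genes. The log2 fold changes of the members ran from -0.81 to 0.51 with 18 above and 16 below 0, and their median of 0.04 compares with 0.01 for all genes tested. The 16 members not tested had a mean under 1 TPM and included H19, Kcnq1ot1 and Jade1.

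Among the paternally expressed genes, Mest was the most abundant in FGOs, at 142, 127 and 112 TPM in control and 119, 106 and 112 TPM in K36M libraries. The groups overlapped, and the log2 fold change was -0.17 ± 0.11 (SE; adjusted p = 0.611, limma). Inpp5f, a phosphoinositide phosphatase, measured 71.4, 63.9 and 62.6 TPM in control and 57.5, 99.0 and 114 TPM in K36M libraries. K36M replicate 1 lay below all control libraries and the other two above them. The log2 fold change was 0.39 ± 0.22 (SE; adjusted p = 0.566, limma), and it ran from 0.19 to 0.68 when 1 library was left out. The highest, without K36M replicate 1, had an adjusted p of 0.0353 (limma), in a fit that called 300 genes in place of 1.

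Gnas, whose main transcript encodes the stimulatory G protein subunit, lay at 70.2, 67.1 and 65.5 TPM in control and 70.2, 63.9 and 63.4 TPM in K36M FGOs. Peg3 lay at 27.3, 24 and 26.8 TPM in control and 19.9, 27.9 and 29.1 TPM in K36M FGOs, and its neighbour Usp29, a deubiquitinase, at 13.7, 13.1 and 14.5 against 13.8, 16.9 and 16.6 TPM. Plagl1 measured 9.56, 10.8 and 8.26 TPM in control and 14.5, 8.55 and 13.6 TPM in K36M FGOs. In each of these genes the groups overlapped. Snrpn was lower, at 7.25, 4.84 and 6.94 TPM in control and 5.25, 5.42 and 4.67 TPM in K36M FGOs. Peg10, a retrotransposon-derived gene needed in the placenta, measured 10.4, 5.73 and 10.2 TPM in control and 3.81, 8.31 and 14.5 TPM in K36M FGOs. The K36M libraries of Peg10 spread on both sides of the control libraries.

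Impact, an inhibitor of the translation kinase GCN2, measured 11.9, 9.12 and 12.3 TPM in control and 6.65, 7.20 and 9.08 TPM in K36M FGOs. All 3 K36M libraries lay below all 3 control libraries, the 2 nearest values being 9.08 and 9.12 TPM. The log2 fold change of -0.48 ± 0.23 (SE) had the smallest adjusted p among the members (0.497, limma) and did not pass. The groups also did not overlap for Rasgrf1 and Meg3, which were lower in K36M FGOs, and for Gab1, which was higher, all at 3.13 TPM or less. These 4 members are 11.8% of the 34 tested, and the groups did not overlap in 15.6% of all genes tested.

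Of the maternally expressed and host genes, Commd1, a copper metabolism gene and the host of Zrsr1, was the most abundant member in FGOs, at 261, 257 and 248 TPM in control and 232, 287 and 272 TPM in K36M libraries. Blcap, the host of Nnat, lay at 109, 134 and 127 against 136, 109 and 148 TPM, and Ube3a, a ubiquitin ligase, at 116, 111 and 125 against 100.1, 157 and 139 TPM. Igf2r, the receptor that clears IGF2, lay at 80.7, 82.6 and 81.3 TPM in control and 74.6, 58.4 and 85.7 TPM in K36M FGOs. The spread was wider in the K36M libraries of all 4 genes, and the groups overlapped. Copg2, a coatomer subunit, lay at 55.1, 61.0 and 57.1 against 57.8, 53.0 and 53.4 TPM. H13, which encodes the signal peptide peptidase and is the host of Mcts2, lay at 48.7, 55.6 and 42.2 against 48.0, 40.9 and 47.6 TPM. Grb10, an adaptor of the insulin receptor, lay at 39.5, 43.0 and 39.8 against 36.6, 36.7 and 42.2 TPM. The groups of these 3 genes overlapped as well.

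Herc3, a ubiquitin ligase gene and the host of Nap1l5, measured 44.3, 30.7 and 32.8 TPM in control and 37.8, 37.7 and 38.8 TPM in K36M FGOs. Trappc9, a vesicle trafficking gene, lay at 23.0, 20.8 and 18.9 against 24.7, 16.2 and 21.1 TPM, and the potassium channel gene Kcnq1 at 14.7, 21.5 and 25.7 against 22.6, 21.8 and 20.8 TPM. Cdkn1c, which encodes the cyclin-dependent kinase inhibitor p57, lay at 20.7, 22.1 and 21.7 against 20.9, 27.4 and 21.3 TPM. The K36M values of Herc3 and Kcnq1 lay within the control range. Phlda2, which restrains placental growth, measured 7.92, 3.77 and 12.6 TPM in control and 8.93, 4.93 and 20.5 TPM in K36M FGOs.

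Members without a mean of 10 TPM in FGOs included the RNAs that silence their neighbours. Airn, the antisense RNA of the Igf2r domain, lay at 2.37, 2.27 and 0.18 TPM in control and 1.82, 2.38 and 1.46 TPM in K36M FGOs. Kcnq1ot1, its counterpart in the Kcnq1 domain, stayed at or below 0.50 TPM in all FGO libraries. Of the sperm-methylated group, H19 was listed at 0 in 4 of 6 FGO libraries and reached 0.16 TPM. The growth factor gene Igf2 lay at 0.94, 1.00 and 2.21 TPM in control and 2.53, 1.58 and 2.96 TPM in K36M FGOs. Dio3, whose product inactivates thyroid hormone, lay at 1.41, 5.09 and 2.88 against 3.10, 0.62 and 2.13 TPM. Zrsr1 and Mcts2, which lie inside Commd1 and H13, stayed at or below 3.05 TPM in all 6 libraries, as did Jade1, a PHD finger protein gene of the H3K27me3 group, at or below 1.59 TPM. Nap1l5, a nucleosome assembly gene, measured 5.02, 8.35 and 3.05 TPM in control and 6.23, 6.23 and 10.8 TPM in K36M FGOs, and Nnat, a small membrane protein gene, lay between 0.07 and 5.16 TPM. Gab1, a docking adaptor of growth factor receptors, lay at 1.40, 1.31 and 2.02 against 2.39, 2.10 and 3.13 TPM.

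Two-cell embryos were compared with FGOs to see which imprinted transcripts were carried over and which rose at this stage. In the controls, 11 of 40 members tested changed (27.5%), 7 higher and 4 lower, where limma called 30.5% of 16914 genes, 15.0% higher and 15.5% lower. In the K36M libraries 11 of 38 members tested changed (28.9%), 3 higher and 8 lower, where 25.3% of 16677 genes were called, 9.86% higher and 15.4% lower. The members were thus called about as often as all genes. The median log2 fold change of the members was 0.07 in controls and -0.11 in K36M, beside 0.08 and -0.16 for all genes tested. Quantile normalization moved the median of all genes to 0.03 in controls and 0.12 in K36M, and median-of-ratios scaling moved it to -0.11 and -0.29, with no called member changing direction. The stages also differ in pool size (5 FGOs against 1 embryo), in the number of amplification cycles and in the presence of a JF-1 paternal genome, which cannot be told apart from the stage.

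Zrsr1 and Jade1 rose in both genotypes. Zrsr1 lay at 2.73, 0.58 and 0.59 TPM in control FGOs and at 53.8 to 164 TPM (median 113) in the control embryos, a log2 fold change of 5.73 ± 0.46 (SE; adjusted p = 1.85e-06, limma). In K36M it lay at 0.56, 1.29 and 0.89 TPM in FGOs and at 14.4 to 278 TPM (median 98.6) in embryos, a log2 fold change of 5.54 ± 0.75 (SE; adjusted p = 0.000111, limma). No embryo of either genotype overlapped the FGO range. Reads of Zrsr1 may be shared with its near-identical copy Zrsr2, so its level is uncertain. Jade1 rose from at most 1.00 TPM in control FGOs to 23.9 to 100.3 TPM (median 57.6) in control embryos, and from at most 1.59 to 15.7 to 174 TPM (median 65.2) in K36M. Its log2 fold changes were 4.97 ± 0.53 (SE; adjusted p = 1.86e-05, limma) and 5.32 ± 0.67 (SE; adjusted p = 6.33e-05, limma). The groups did not overlap in either genotype.

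Cdkn1c became the most abundant of the members in the control embryos, at 366 to 742 TPM (median 679), from 20.7 to 22.1 TPM in control FGOs. It rose by 4.65 ± 0.28 (SE; adjusted p = 2.11e-07, limma) on the log2 scale. In K36M it lay at 20.9, 27.4 and 21.3 TPM in FGOs and at 61.1 to 406 TPM (median 219) in embryos, and rose by 2.99 ± 0.54 (SE; adjusted p = 0.00112, limma). All embryos of both genotypes lay above all FGO libraries. The difference between the 2 rises, tested as the genotype-by-stage interaction, was -1.66 ± 0.64 (SE) on the log2 scale, with an unadjusted p of 0.0158 and an adjusted p of 1.00 in limma.

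Dio3, Phlda2, Mcts2 and Plagl1 passed the threshold in controls and not in K36M. Dio3 lay at 45.7 to 330.5 TPM (median 163) in the control embryos and rose by 5.15 ± 0.57 (SE; adjusted p = 2.62e-05, limma) on the log2 scale. In K36M oocyte-derived embryos it lay at 0 to 215 TPM (median 19.6), was listed at 0 in 2 of 8, and had a log2 fold change of 2.21 ± 1.5 (SE; adjusted p = 0.316, limma; 0.0136 with array weights). Phlda2 lay at 20.7 to 329 TPM (median 100.1) in control and at 1.30 to 611 TPM (median 187) in K36M oocyte-derived embryos. Its log2 fold changes were close, 3.62 ± 0.77 (SE; adjusted p = 0.00338) and 3.46 ± 1.25 (SE; adjusted p = 0.0572, both limma). In controls the call was lost when control embryo replicate 4 was added (2.79, adjusted p = 0.156), and in K36M it was gained without embryo replicate 5 (4.27, adjusted p = 0.000271), with a minimum mean of 5 TPM (adjusted p = 0.0434), with quantile normalization (0.0231) and with array weights (0.000912).

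Plagl1 lay at 5.91 to 190.0 TPM (median 64.6) in control embryos, with 1 embryo below the FGO libraries, and its log2 fold change was 2.44 ± 0.77 (SE; adjusted p = 0.0289, limma). In K36M oocyte-derived embryos it lay at 4.95 to 103 TPM (median 30.5), with a log2 fold change of 1.28 ± 0.76 (SE; adjusted p = 0.248, limma; 0.0416 with array weights). Mcts2 lay at 0.47, 2.01 and 1.97 TPM in control FGOs and at 2.13 to 156 TPM (median 37.3) in control embryos, a log2 fold change of 3.52 ± 1.19 (SE; adjusted p = 0.0405, limma). In K36M it lay at 2.43, 0.31 and 3.05 TPM in FGOs and at 0 to 82.0 TPM (median 27.6) in embryos, a log2 fold change of 2.71 ± 1.19 (SE; adjusted p = 0.115, limma). The Mcts2 call in controls was lost without any of FGO replicates 1 to 3 or embryo replicates 1, 2, 3, 5 and 6 (adjusted p of 0.0512 to 0.150), with all genes above 0 (0.0708), with no trend (0.0550) and with control embryo replicate 4 added (0.0547). It was gained in K36M without embryo replicate 3 (3.29, adjusted p = 0.0185) and with array weights (0.00976). The Plagl1 call in controls was lost without any of the 3 FGO replicates or embryo replicate 3 (adjusted p of 0.0520 to 0.101). Mcts2 may share reads with its near-identical parent gene Mcts1. The genotype-by-stage interaction did not pass for Dio3, Phlda2, Mcts2 or Plagl1 (adjusted p of 1.00, limma).

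The 4 members that fell in both genotypes had means over 10 TPM in the oocyte. Commd1 lay at 2.18 to 59.4 TPM (median 25.4) in control and 0 to 61.1 TPM (median 25.8) in K36M oocyte-derived embryos, with log2 fold changes of -3.82 ± 0.78 (SE; adjusted p = 0.00260) and -3.86 ± 1.02 (SE; adjusted p = 0.0133, both limma). Blcap lay at 0 to 30.6 TPM (median 13.7) in control and 3.65 to 51.3 TPM (median 20.4) in K36M oocyte-derived embryos, with log2 fold changes of -3.74 ± 0.93 (SE; adjusted p = 0.00855) and -2.82 ± 0.74 (SE; adjusted p = 0.0122, both limma). Ube3a lay at 18.8 to 63.9 TPM (median 28.2) in control and 10.2 to 64.6 TPM (median 41.5) in K36M oocyte-derived embryos, with log2 fold changes of -1.90 ± 0.42 (SE; adjusted p = 0.00422) and -2.11 ± 0.60 (SE; adjusted p = 0.0197, both limma). All embryos lay below all FGO libraries for these 3 genes. H13 lay at 4.03 to 24.4 TPM (median 16.6) in control and 2.84 to 23.2 TPM (median 7.71) in K36M oocyte-derived embryos, with log2 fold changes of -1.77 ± 0.54 (SE; adjusted p = 0.0264) and -2.42 ± 0.67 (SE; adjusted p = 0.0165, both limma). Its embryos also lay below all FGO libraries. The H13 call was lost in controls without any 1 of the 3 FGO libraries (adjusted p of 0.0882 to 0.126) and in K36M likewise (adjusted p of 0.0739 to 0.0909). In K36M the same held for Commd1 (adjusted p of 0.0560 to 0.0674, and 0.0606 with a pseudocount of 0.1) and Ube3a (adjusted p of 0.0584 to 0.103), and Blcap lost its call without FGO replicate 1 or 3 (adjusted p of 0.0632 and 0.0676).

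Mest, Herc3, Impact and Nap1l5 passed the threshold in K36M and not in controls. Mest lay at 0.20 to 83.2 TPM (median 42.1) in control and 3.53 to 57.6 TPM (median 16.5) in K36M oocyte-derived embryos. Its log2 fold changes were -2.47 ± 1.07 (SE; adjusted p = 0.0987) and -2.94 ± 0.83 (SE; adjusted p = 0.0180, both limma), and all embryos lay below all FGO libraries. Herc3 lay at 6.48 to 27.2 TPM (median 15.6) in control and 2.23 to 15.2 TPM (median 5.05) in K36M oocyte-derived embryos, with log2 fold changes of -1.19 ± 0.49 (SE; adjusted p = 0.0816) and -2.57 ± 0.69 (SE; adjusted p = 0.0141, both limma). Impact lay at 0.14 to 29.3 TPM (median 5.18) in the control embryos, on both sides of the FGO range, and was listed at 0 in 6 of 8 K36M oocyte-derived embryos, with at most 2.40 TPM in the other two. Its log2 fold changes were -0.94 ± 0.90 (SE; adjusted p = 0.460) and -2.69 ± 0.63 (SE; adjusted p = 0.00633, both limma), and in K36M it was -5.14 with a pseudocount of 0.1. The control value of Impact ran from -1.32 to -0.53 when 1 library was left out. Nap1l5 was listed at 0 in 4 of 7 control embryos, with 2.49, 6.19 and 11.6 TPM in the other three, and at 0 in all 8 K36M oocyte-derived embryos, so no fold is given; in limma its fall passed in K36M (adjusted p = 0.000329) and it did not pass in controls (adjusted p = 0.274). In K36M the Mest and Herc3 calls were lost without any 1 of the 3 FGO libraries (adjusted p of 0.0760 to 0.0841 and of 0.0752 to 0.0799). In controls both were gained without embryo replicate 7, Mest with -1.76 (adjusted p = 0.0454) and Herc3 with -1.33 (adjusted p = 0.0401). Both were also gained in controls with quantile normalization (adjusted p of 0.0498 for Mest and 0.0434 for Herc3) and array weights (0.000636 and 0.00865), Herc3 with median-of-ratios scaling (0.0407) and Nap1l5 with array weights (0.0301). The genotype-by-stage interaction did not pass for Mest, Herc3, Impact or Nap1l5 (adjusted p of 1.00, limma).

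The 2 stage comparisons share no library. Of the 11 members called in each, 7 were called in both (63.6% of each list), namely Blcap, Cdkn1c, Commd1, H13, Jade1, Ube3a and Zrsr1, each in the same direction. Of all genes called, 3181 were called in both, which is 61.7% of the control list and 75.4% of the K36M list. Of the 36 members tested in both, 33 (91.7%) had fold changes of the same sign, beside 87.8% of all 15048 genes tested in both. The groups did not overlap for 16 of 40 members in controls and 15 of 38 in K36M, beside 32.7% and 26.3% of all genes tested.

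**Figure D2:**
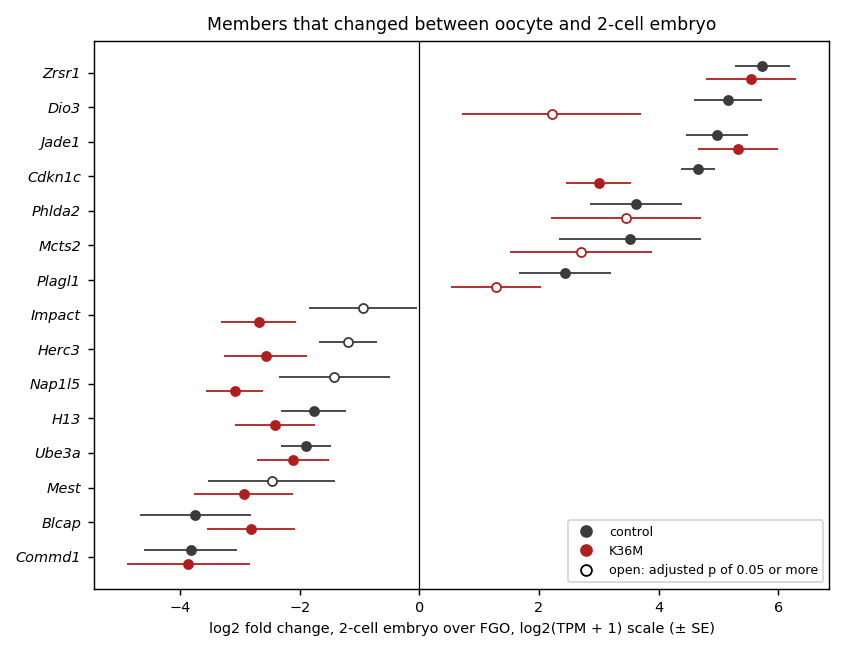
Log2 fold change of two-cell embryos over FGOs, on the log2(TPM + 1) scale with its SE, for the 15 members called in at least 1 genotype (black, control; red, K36M; filled, adjusted p under 0.05 in limma; open, not called). All 15 pairs of points lie on the same side of 0, and Nap1l5 was listed at 0 in all 8 K36M oocyte-derived embryos, so its position depends on the pseudocount.

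Several members are imprinted genes nested inside a host gene, and the share of the nested gene is given as a description, with no test. Zrsr1 (chr11:22972005-22976496, plus strand) lies within Commd1 on the opposite strand. It made up 0.23% to 1.03% of the summed TPM of the pair in control FGOs, and 47.5% to 98.7% (median 85.0%) in control embryos. In K36M the share was at most 0.45% in FGOs and 38.3% to 100% (median 82.2%) in embryos. Zrsr1 exceeded its host in 6 of 7 control and 7 of 8 K36M oocyte-derived embryos and in no FGO library.

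Mcts2 (chr2:152687148-152687946, plus strand) lies within H13 on the same strand. Its share was at most 6.03% in the 6 FGO libraries, and its median was 63.3% in control and 78.8% in K36M oocyte-derived embryos, with single embryos from 10.1% to 93.8% and from 0% to 96.7%. Nnat (chr2:157560078-157562525, plus strand) lies within Blcap on the opposite strand, and its share was at most 4.10% in FGOs, with medians of 33.8% in the 6 control embryos in which the pair was above 0 and 20.9% in K36M oocyte-derived embryos. Nnat itself ranged from 0 to 84.5 TPM in control and 0 to 25.8 TPM in K36M oocyte-derived embryos and did not pass at either genotype. Single embryos ranged from 0% to 86.0% and from 0% to 64.0%. Nap1l5 made up 8.50% to 21.8% of its pair with Herc3 in FGOs, 0% to 48.8% (median 0%) in control embryos and 0% in all K36M oocyte-derived embryos. Peg13 within Trappc9 was at most 5.69% in FGOs, and ranged from 0% to 15.4% in control and to 18.5% in K36M oocyte-derived embryos, with medians of 0%. The FGO and embryo ranges overlapped for Nnat and Peg13 in both genotypes, for Nap1l5 in controls and for Mcts2 in K36M. The strand setting of the authors' counting is not given in the sources used here, so reads of these overlapping genes cannot be told apart with certainty.

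**Figure D3:**
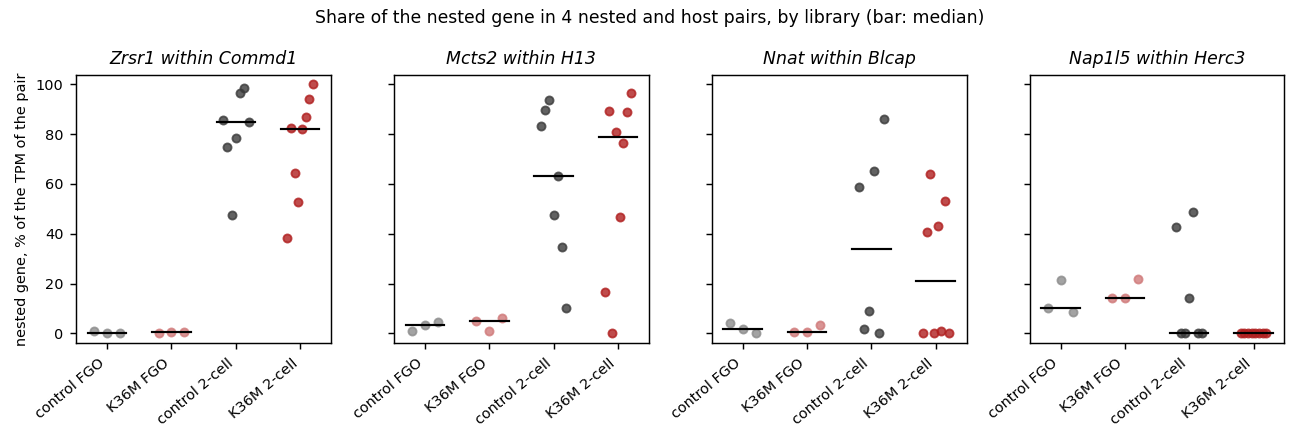
Share of the nested gene in the summed TPM of the nested and host gene, in %, for each library of the 4 groups, with the median as a bar. Zrsr1 and Mcts2 sit below 7% in all 6 FGO libraries and range up to nearly the whole pair in embryos, Nnat is split among embryos and Nap1l5 is at 0 in all K36M oocyte-derived embryos.

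K36M oocyte-derived embryos were compared with control embryos to see whether the imprinted genes differed after fertilization. Of 41 members tested, 0 passed an adjusted p of 0.05 in limma, as did 0 of 17362 genes (0.0%). At an unadjusted p under 0.05 there were 4 members (9.76%), Cdkn1c, Dio3, Impact and Herc3, all lower in K36M oocyte-derived embryos. All genes with such a p were 7.71% of those tested, and those that were lower were 6.5%. The groups overlapped for all 41 members and did not overlap for 0.115% of all genes. The share of members is near that of all genes. Of the 41 members, 28 were below and 13 above 0, with a median log2 fold change of -0.40. Of all genes tested, 36.2% were above 0, and their median was -0.26. This shift of all genes was -0.04 after quantile normalization and -0.18 after median-of-ratios scaling.

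Cdkn1c was lower than the control median in 8 of 8 K36M oocyte-derived embryos and below all control embryos in 6. Its mean was 587.6 TPM in control and 229 TPM in K36M oocyte-derived embryos. The log2 fold change was -1.56 ± 0.35 (SE; unadjusted p = 0.000205, adjusted p = 0.254, limma), or -1.30 relative to the median of all genes. Over all alternatives it ranged from -1.71 to -1.21, with adjusted p of 0.137 to 0.593. The groups overlapped, since the highest K36M embryo (406 TPM) exceeded the lowest control embryo (366 TPM).

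Dio3 lay below all control embryos in 6 of 8 K36M oocyte-derived embryos. The other two, at 63.5 and 215 TPM, lay within the control range. The log2 fold change was -3.42 ± 0.92 (SE; unadjusted p = 0.00112, adjusted p = 0.377, limma) and ranged from -4.31 to -2.54 over all alternatives, with adjusted p of 0.137 to 0.715. For Impact, 6 of 8 K36M oocyte-derived embryos were listed at 0 and below all control embryos, and all 8 were below the control median of 5.18 TPM. Its log2 fold change was -2.24 ± 0.72 (SE; unadjusted p = 0.00501, adjusted p = 0.539, limma) and ranged from -4.34, with a pseudocount of 0.1, to -1.86, with adjusted p of 0.369 to 0.796. Herc3 was below all control embryos in 5 of 8, and its log2 fold change was -1.28 ± 0.62 (SE; unadjusted p = 0.0496, adjusted p = 0.644, limma). Under quantile normalization the Herc3 value was -0.71 with an unadjusted p of 0.235.

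**Figure D4:**
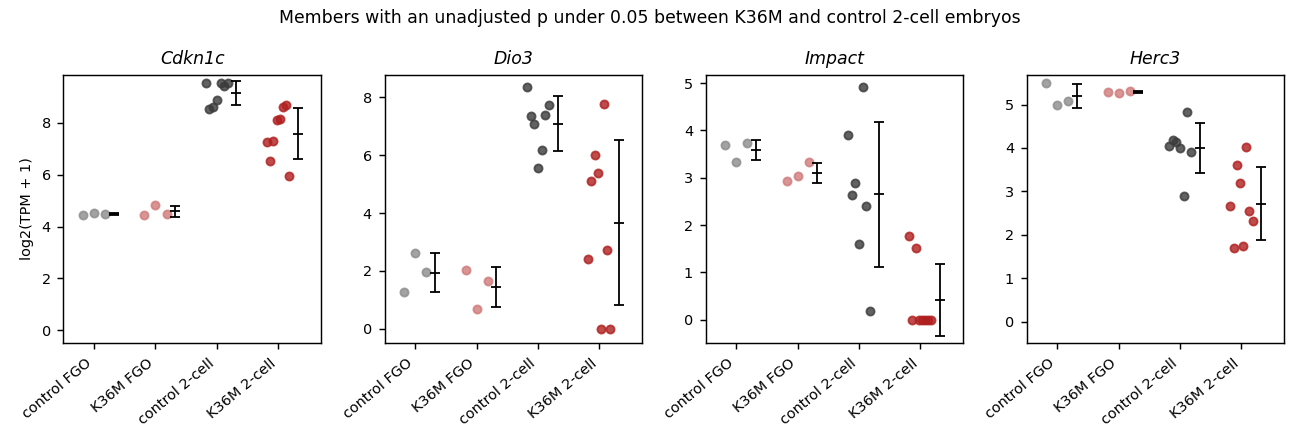
Log2(TPM + 1) of Cdkn1c, Dio3, Impact and Herc3 in each library of the 4 groups (points), with mean and SD beside them. The K36M oocyte-derived embryos sit lower than most control embryos in all 4 panels but the groups overlap, and for Impact 6 of 8 are at 0.

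The other abundant members overlapped between K36M and control embryos. Among paternally expressed genes, Peg3 lay at 19.6 to 82.9 TPM (median 44.0) in control and 9.40 to 82.9 TPM (median 38.3) in K36M oocyte-derived embryos. Usp29 had medians of 16.6 and 16.6 TPM, and Snrpn lay at 8.11 to 17.1 TPM (median 13.1) against 7.03 to 34.4 TPM (median 17.7). Inpp5f had medians of 35.4 and 32.2 TPM and Gnas of 24.1 and 37.5 TPM. These 5 genes had log2 fold changes between -0.50 and 0.39. Peg3 and Inpp5f were both at -0.50. When 1 embryo was left out, Peg3 ran from -0.70 to -0.27, and Inpp5f was 0.07 without K36M replicate 8. Peg10 was uneven between embryos, at 0.23 to 144 TPM (median 7.45) in control and 1.76 to 40.4 TPM (median 8.69) in K36M oocyte-derived embryos.

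Of the other group of these domains, Igf2r lay at 12.3 to 93.3 TPM (median 40.4) in control and 26.4 to 118 TPM (median 51.3) in K36M oocyte-derived embryos, with a log2 fold change of 0.47 ± 0.46 (SE; adjusted p = 0.776, limma), and of 0.21 without control replicate 1. Grb10 had medians of 33.8 and 38.6 TPM, Copg2 of 18.9 and 19.9 TPM, Trappc9 of 26.3 and 14.3 TPM and Kcnq1 of 9.11 and 7.22 TPM. Trappc9 differed most of these, with a log2 fold change of -1.09 ± 0.62 (SE; adjusted p = 0.679, limma), and of -0.63 without K36M replicate 8, where it was at 0.41 TPM. Kcnq1ot1 was above 0 in every embryo, at 0.72 to 4.71 TPM (median 1.94) in control and 0.47 to 4.95 TPM (median 1.87) in K36M oocyte-derived embryos. Airn was listed at 0 in 5 of 7 control and 7 of 8 K36M oocyte-derived embryos. Kcnq1ot1 and Airn did not differ past the threshold.

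H19 was listed at 0 in 4 of 7 control embryos, reached 0.36 TPM in the others and was at 0 in all 8 K36M oocyte-derived embryos. Igf2 lay at 0.12 to 63.8 TPM (median 2.82) in control and 0 to 13 TPM (median 0.40) in K36M oocyte-derived embryos, where 4 of 8 were listed at 0. Its log2 fold change was -1.08 ± 0.90 (SE; adjusted p = 0.757, limma), and -0.45 without control replicate 1, the embryo at 63.8 TPM. Gab1, with a maternal H3K27me3 imprint, lay at 0.31 to 34.6 TPM (median 17.4) against 0 to 21.4 TPM (median 7.0), with a log2 fold change of -0.81 ± 0.90 (SE; adjusted p = 0.794, limma), which ran from -1.32 to -0.42 when 1 embryo was left out. Jade1 had a log2 fold change of 0.34 ± 0.46 (SE; adjusted p = 0.841, limma), which ran from 0.15 to 0.64 in the same way. In this H3K27me3 group 4 of 5 members were below 0 and 1 above, where 36.2% of all genes tested were above 0, and 0 of 5 passed.

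**Figure D5:**
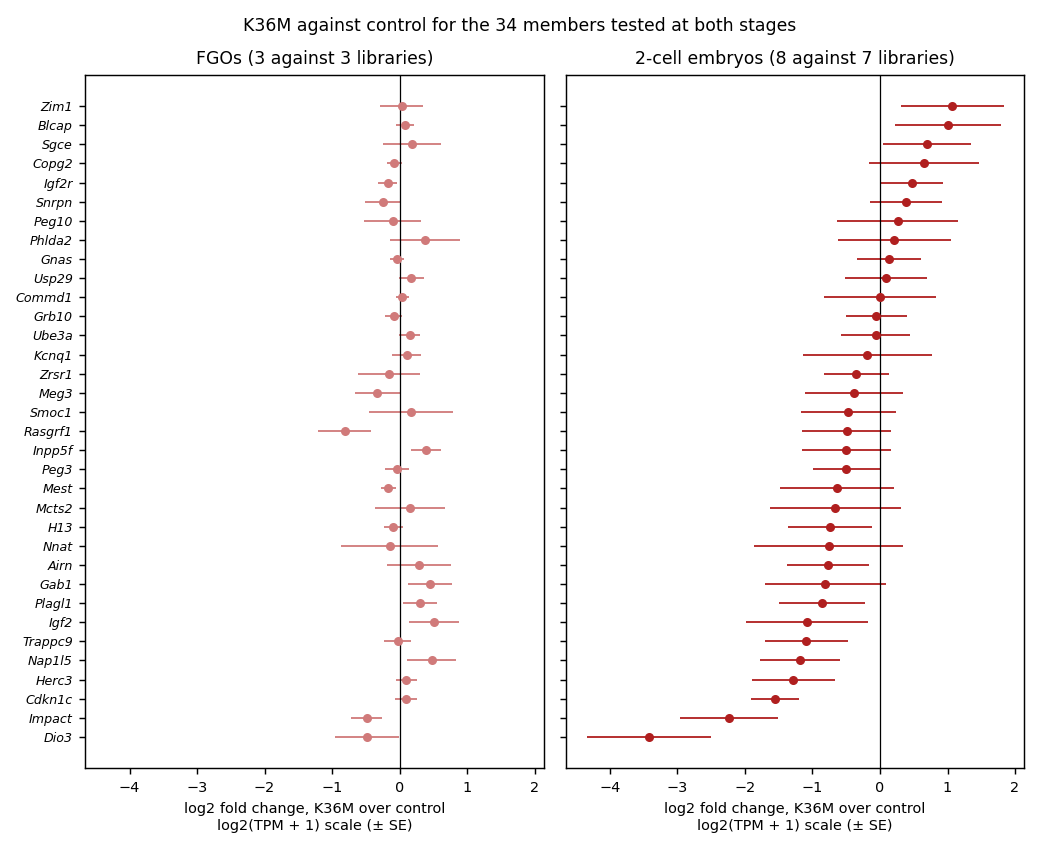
Log2 fold change of K36M over control, on the log2(TPM + 1) scale with its SE, for the 34 members tested at both stages, in FGOs (left) and in two-cell embryos (right). None was called in limma. Points in FGOs lie between -0.81 and 0.51 around 0, whereas those in embryos spread from -3.42 to 1.07 with wider errors, and Nap1l5, listed at 0 in all 8 K36M oocyte-derived embryos, depends on the pseudocount.

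The K36M effect was compared between stages by the genotype-by-stage interaction over 21 libraries. Of 41 members tested, 0 passed in limma, as did 0 of 17358 genes (0.0%), and 1 member had an unadjusted p under 0.05 (Cdkn1c, 2.44% of members), beside 1.15% of all genes.

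The remaining 18 members had low values in all 4 groups. They had means of at most 3.51 TPM in control FGOs, 3.52 TPM in K36M FGOs, 6.69 TPM in control embryos and 5.00 TPM in K36M oocyte-derived embryos, and 5, 4, 9 and 9 of them reached 1 TPM. Zim1, a zinc finger gene of the Peg3 domain, was the highest of these in FGOs, and Ndn, a gene of the Snrpn domain, was the highest in control embryos, with 41.8 TPM in 1 embryo and 0 in 4 of 7. Such members above 0 in 1 or a few embryos included Ddc, with 22.4 TPM in 1 K36M oocyte-derived embryo, and Sgce, with 31.7 TPM in 1. They did not pass in any of the 5 comparisons as reported.

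For reference, 33 further imprinted genes and 10 factors that set or protect imprints were measured. None of the further imprinted genes passed between K36M and control in FGOs (0 of 19 tested) or embryos (0 of 21) in limma. At an unadjusted p under 0.05 there were 1 in FGOs (5.26%, beside 10.5% of all genes) and 4 in embryos (19%, beside 7.71%). Between the stages 3 of 23 changed in controls (13%, beside 30.5% of all genes) and 1 of 20 in K36M (5.0%, beside 25.3%). Of the 10 factors, 0 passed between K36M and control in limma, with 3 in FGOs (30.0%, beside 10.5% of all genes) and 0 in embryos at an unadjusted p under 0.05. Between the stages 1 rose and 5 fell in each genotype (60.0%, beside 30.5% of all genes in controls and 25.3% in K36M).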

How the data were processed

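RNA libraries (SMART-Seq stranded kit) of FGOs and single two-cell embryos were used. The authors trimmed reads with Trim Galore!, mapped them to mm10 with Hisat2, removed ribosomal RNA reads with BEDTools, counted genes with featureCounts, tested with edgeR and deposited TPM values, which sum to 1000000 in each library. The annotation, gene lengths and strand setting behind the TPM are not given in the sources used here. The study lists total reads per library but not the reads counted per gene, so no counting interval was given. Samples were grouped by the labels, and all 22 columns were mapped.

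Genes whose TPM averaged 1 or more entered limma 3.58.1 (R 4.3.3, lmFit and eBayes with a trend) as log2(TPM + 1), and p-values adjusted by Benjamini-Hochberg were called under 0.05. Each of 5 comparisons used only its own libraries (21 for the interaction). Fold changes of low genes are understated on this scale. On simulated data with known changes of 2 log2 units, this called 88.5% of changed genes in FGOs, 31.5% in embryos, 41.5% and 30.7% between stages in control and K36M, and 12.5% in the interaction. For changes of 1 log2 unit it called 54.5% in FGOs and 0% in embryos. The changes were planted only in genes above a minimum mean level, so recovery for low members was not measured. Each gene was given a single spread, averaged over the groups compared, although embryos varied more than FGO pools.

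Positions and promoters were from RefSeq GRCm38.p6. The members, gene lists and tests were chosen with earlier results of these data known. Values were given for the 28 members with a mean of at least 10 TPM in a group, for members called in any comparison, and for H19, Igf2, Snrpn, Peg3, Mest, Kcnq1ot1 and Airn, which made 32, and the other 18 were given by ranges. Those of the 18 that are named, and Rasgrf1 and Meg3 among them, were chosen after their values were seen. Alternatives were a pseudocount of 0.1, all genes above 0, a minimum mean of 5 TPM, median-of-ratios scaling, quantile normalization, array weights, no trend, a block for the replicate number, each library left out, and control embryo replicate 4 added. The other 23 samples of the series were not analysed here. Python 3.11.15, numpy 2.4.6, pandas 2.3.3 and matplotlib 3.10.9 were used.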

Additional observations from a re-analysis of the deposited data

Results flagged for a closer look

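Single embryos were checked for members that stood apart from the rest of their group on the log2(TPM + 1) scale, over 32 members in the control and K36M oocyte-derived embryos. Of 64 sets of embryos 7 held such a value. Chance alone flags about 1 set in 20, a rate that does not hold for sets with many values at 0, such as Airn in K36M oocyte-derived embryos (0 in 7 of 8). In control embryo replicate 7, Plagl1 was at 5.91 TPM, against 55.0 to 190.0 TPM in the other control embryos, and Copg2 was at 0.13 TPM, against 10.4 to 42.3 TPM. In K36M oocyte-derived embryo replicate 8, Inpp5f was at 0.38 TPM, against 16.4 to 49.7 TPM in the others, and Trappc9 at 0.41 TPM, against 11.5 to 34.0 TPM. In K36M oocyte-derived embryo replicate 5, Phlda2 was at 1.30 TPM, against 76.3 to 611 TPM. Airn was high at 21.4 TPM in control embryo replicate 6, against at most 1.5 TPM in the others, and at 0.44 TPM in K36M oocyte-derived embryo replicate 3, with the others listed at 0.

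Control embryo replicate 4, which the study left out, exceeded all 7 other control embryos in 7 of 50 members at 10 TPM or more (14%), beside 13.2% of all genes. Meg3 was at 98.6 TPM, against at most 19.5 TPM in the others, Rtl1 at 25.9 TPM against 2.49 TPM, Herc3 at 84.1 TPM against 27.2 TPM, and Commd1 at 91.8 TPM against 59.4 TPM. Snrpn was at 32.1 TPM against 17.1 TPM, Trappc9 at 45.3 TPM against 42.9 TPM and H13 at 25.2 TPM against 24.4 TPM. Of the 12 members at 10 TPM or more in all 7 others, replicate 4 lay below all of them in 6 (50%), beside 35.2% of 5093 such genes. Dio3 and Phlda2 were listed at 0, Jade1 was at 0.38 TPM, Ube3a at 7.44 TPM, Zrsr1 at 9.89 TPM and Cdkn1c at 84.9 TPM.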

How the results depend on the processing

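Of 1104 values of 54 fold changes under alternatives, 1042 kept direction and side of the threshold, 43 lost and 18 gained the call, and 1 changed direction (Inpp5f between embryos, -0.50 as reported, -0.70 to 0.072 without 1 embryo and highest without K36M replicate 8, none past the threshold). The cause of these moves was not tested. For K36M against control FGOs, 0 genes passed with a pseudocount of 0.1, all genes above 0, no trend or the replicate block, and leaving out 1 library gave 0 to 300 genes (300 without K36M replicate 1) and 0 to 1 members. For embryos, 5 genes passed with no trend, 1 with array weights and 0 to 1 without 1 embryo (1 without K36M replicate 8). Between the stages, array weights gave 9396 genes and 22 members in controls and 8212 genes and 21 members in K36M, and leaving out 1 library gave 3015 to 5966 genes and 8 to 14 members in controls and 2342 to 4439 genes and 5 to 12 members in K36M, lowest without an FGO library. For the interaction, 13 genes passed over all genes above 0, 1 with no trend, 3 with array weights and 0 to 3 without 1 library. Members past the threshold between K36M and control embryos and in the interaction were 0 under all alternatives run. Same-numbered libraries did not deviate together (correlations of -0.101 to 0.101). With as few as 3 pairs per comparison, this cannot show whether the numbers pair them. With the replicate block, the K36M stage comparison gave 2385 genes and 7 members. The calls of Blcap, H13, Herc3, Impact, Mest and Ube3a were lost there (adjusted p of 0.0607 to 0.149, limma). Those of Phlda2 (adjusted p = 0.0424, limma) and Sgce were gained. TPM keeps no depth, and in simulated embryos 0% of changes of 1 log2 unit were called.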
